A study of Mus musculus with 8 samples.

Results

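The EL4 tumor effect was measured in CD115- monocytic cells of bone marrow (BM) by RNA-Seq. The comparison had 2 groups, with 2 libraries each: CD115- monocytic myeloid-derived suppressor cells (M-MDSCs) of EL4 tumor-bearing (TB) mice, named tCD115-, and CD115- monocytes of naive mice, named nCD115-. All mice were wild-type C57BL/6. EL4, a T lymphoma line derived from that strain, was implanted under the skin, and the labels place the tumor groups at day 21 after inoculation, with no time for the naive mice. Cells flushed from femurs were gated as Ly6C hi CD11b+ cells without CD11c, Ly6G and SiglecF, and split by CD115, the receptor of M-CSF. The 4 libraries were part of a series of 8, in which the CD115+ fractions of the same marrow populations (tCD115+ and nCD115+) gave 2 libraries each. Every gene of the deposited count table belonged to the comparison. Of 16160 genes in the table, 13211 passed the filter on low counts and were tested. The study describes the 2 libraries of a group as biological replicates. Neither the labels nor the methods say whether a library came from 1 mouse or a pool. Mice were 6 to 10 weeks old, a range that holds for all experiments and is not split by library. Tumor-bearing mice were compared with untreated mice with no other tumor in this series.

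Monocytes and neutrophils arise from shared progenitors in BM, and Ly6C hi monocytes give rise to patrolling monocytes, macrophages and some dendritic cells. A growing tumor shifts this output through secreted cytokines, and the immature myeloid cells that result are called MDSCs when they restrain T cells. M-MDSCs look like monocytes by surface markers, whereas polymorphonuclear MDSCs look like neutrophils, whose granule proteins are made in a fixed order (azurophil, then specific, then gelatinase granules). Monocytes also hold a standing program of interferon-stimulated genes, which type I interferon switches on through its receptor.

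Depth was even, with 91967299 and 92767913 reads in genes in tCD115-, 90897965 and 86770250 in nCD115-, and 69692398 to 95353798 over all 8 libraries. Levels are given in CPM, read counts relative to the size of the library after scaling by trimmed mean of M-values (TMM). Before that scaling, 1 read of a library with the median total was 0.0109 CPM. Itgam (CD11b) stood at 1393 and 1485 CPM in tCD115- and 1308 and 1492 in nCD115-, and Ly6c2 at 1700.4 and 1681 against 1782 and 1638. Reads of Ly6c2 and its near copy Ly6c1 may have been split between them. Itgax (CD11c) was between 1.64 and 3.66 CPM, Siglecf between 5.83 and 10.5 and Ly6g between 20.3 and 44.3. Csf1r, which encodes CD115, was not absent from cells sorted as CD115-: it stood at 283 and 490.3 CPM in tCD115- against 825 and 728 in nCD115-, with a log2 fold change of −1.01 (SE 0.23, edgeR adjusted p = 0.0372). This call lay at the fold threshold and was lost under 4 of 9 other settings and in 7 of 8 fits that left out 1 library. Its log2 fold change was −0.66 without tCD115- replicate 1 and −1.46 without tCD115- replicate 2.

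The replicates were not equally close. Log2 levels correlated at 0.986 between the tCD115- libraries and 0.989 between the nCD115- libraries, and at 0.969 to 0.983 across these groups (Pearson's r over 13211 genes, and genes are no independent replicates). In principal component analysis of the 4 libraries, PC1 held 62.4% of the variance, with scores of −52.2 and −18.0 in tCD115- and 41.4 and 28.9 in nCD115-. The median absolute log2 difference between replicates was 0.222 in tCD115- and 0.134 in nCD115-. Replicate 1 of tCD115- was the farther from nCD115- for 93 of 113 genes called higher and 274 of 321 genes called lower. Sums of neutrophil and of monocyte genes also placed replicate 1 of tCD115- the farther. Summed over 28 gelatinase granule and mature neutrophil genes the level was 61132 and 36048 CPM in tCD115- against 25747 and 32915 in nCD115-, and over 25 monocyte genes it was 28401 and 37066 against 50498 and 47535. In bulk samples, fewer cells of a type and less RNA per cell cannot be told apart, and the part of such a mixture in the results was not tested. Markers of B cells (13 tested) summed to 17.8 and 12.9 CPM against 36.2 and 31.2, with replicate 2 of tCD115- the farther from nCD115-. The 18 markers of T and NK cells summed to 129 and 111 against 68.7 and 79.1, most of it Nkg7. The T cell genes Cd3e (1.04 and 1.88 CPM against 0.852 and 0.888) and Cd3d (1.23 and 1.95 against 1.31 and 1.61) were at or under 1.95 CPM in all 4 libraries. Erythroid markers were also low: of 12 tested, Tfrc alone exceeded 10 CPM. Of the 12 log2 fold changes, 10 were negative and 2 positive, with a median of −2.15. None was called by edgeR, whereas DESeq2 called 4 lower.

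**Figure D1:**
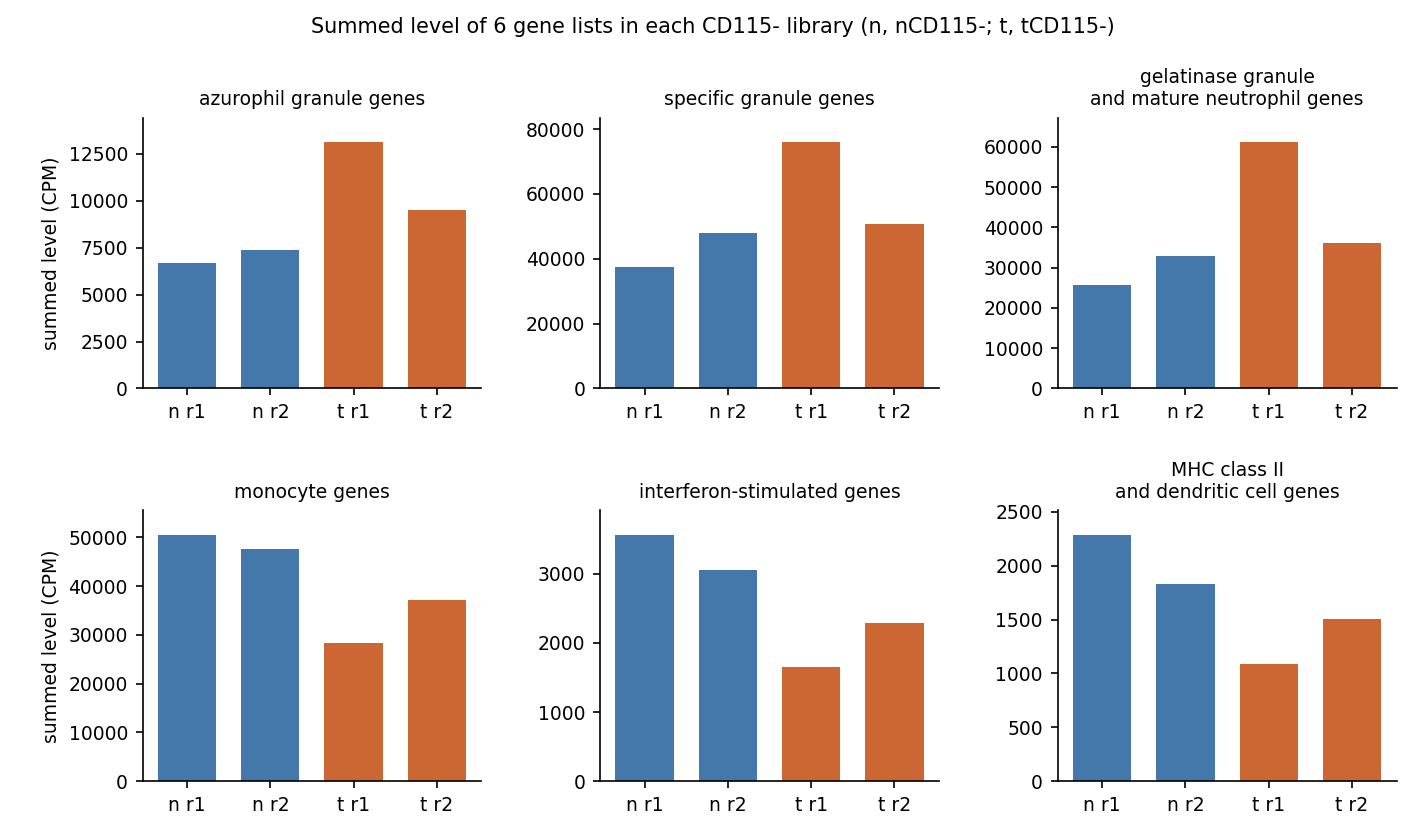
Bars give the summed level (CPM, axes from 0) of the tested members of 6 gene lists in each CD115- library, with nCD115- (n) in blue and tCD115- (t) in orange. Replicate 1 of tCD115- had the highest sum for the 3 granule lists and the lowest for monocyte, interferon-stimulated and MHC class II genes, and replicate 2 lay between it and nCD115- in all 6.

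More genes fell than rose. A gene was called where it changed by 2-fold or more with an adjusted p under 0.05, from edgeR's quasi-likelihood test and Benjamini-Hochberg adjustment over all tested genes, the source of every adjusted p given here as edgeR's. By this rule 113 genes were higher in tCD115- (0.855% of those tested) and 321 were lower (2.43%), 3.29% in either direction. The median log2 fold change of all tested genes was near 0 (9.97e-05). Changes of at least 4-fold were found for 41 higher and 58 lower genes. At any fold, 1280 genes had an adjusted p under 0.05. In 3 of the genes called higher and 5 of those called lower, 1 group had no read at all, so that the fitted fold is no measure of size. Libraries of the groups did not overlap for any of the 434 called genes, nor for 7701 of all 13211. The count leaned on single libraries: without nCD115- replicate 1, 8 genes were higher and 28 lower, without nCD115- replicate 2 these were 35 and 140, without tCD115- replicate 1 they were 63 and 183, and without tCD115- replicate 2 they were 243 and 816. In all 8 fits that left out 1 library, 5 genes stayed called higher (Lipg, Jak3, Pim1, Tgm1 and Ankrd49) and 28 lower, Ifit1, Ifit3, Rsad2, Siglec1, Cx3cr1, Hpgd, Lpl, Cd74, Mrc1 and Slamf8 among them. Leaving out any 1 of the CD115+ libraries, which are not in this contrast but share its estimate of spread, also lowered both counts. The counts without tCD115- replicate 1 were close to those, so that fit cannot set this replicate apart from any other library. With the 4 CD115- libraries fitted alone, 13 were higher and 23 lower.

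**Figure D2:**
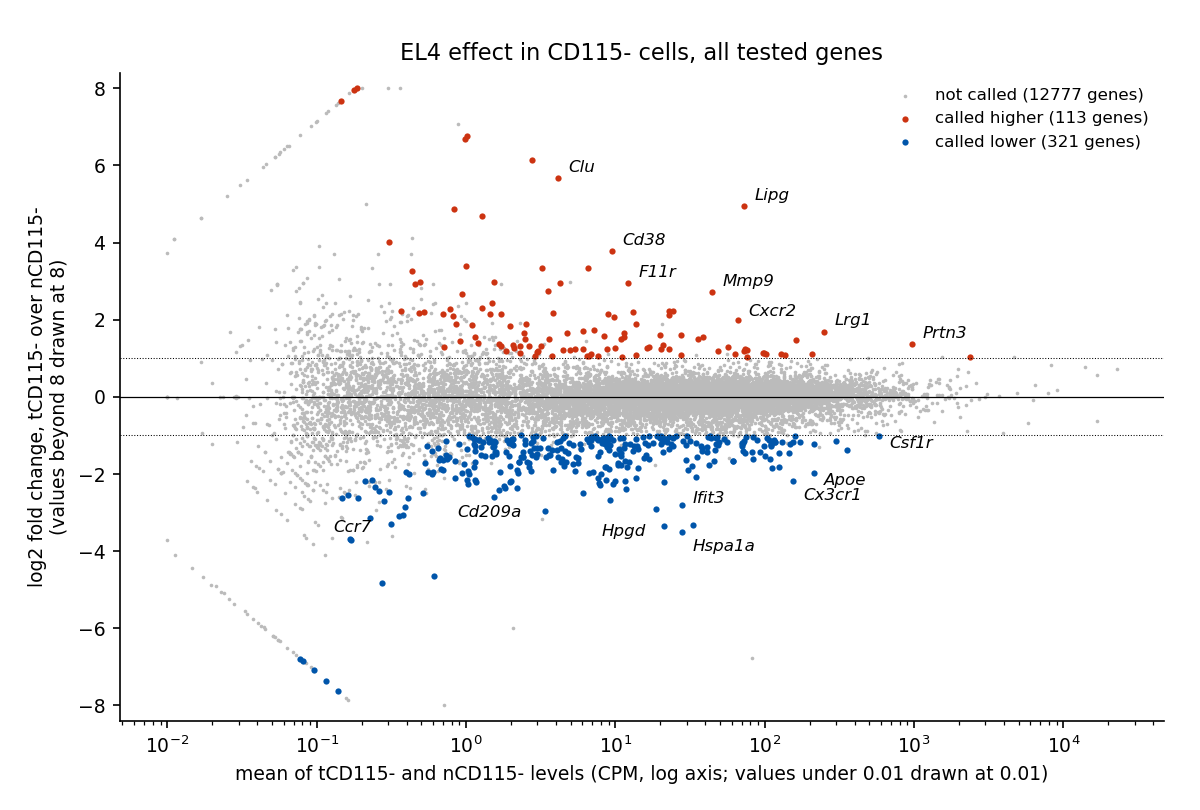
Each point is 1 of 13211 tested genes, with the mean level of the 2 groups (CPM, log axis) against the log2 fold change of tCD115- over nCD115-. The 321 genes called lower (blue) outnumbered the 113 called higher (red), and the largest folds lay at low levels.

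Many interferon-stimulated genes fell in tCD115-. Of 34 tested, 15 were called lower and none higher, against 2.43% of all genes called lower, and all 34 had a negative log2 fold change with a median of −0.97. The largest falls were in Siglec1, Ifit3, Ifit3b, Ifi44, Rsad2 and Ifit1. The proximal promoters of 4 of the called genes are shown because interferon acts on them through the interferon-stimulated response element (ISRE). Each is read from 5′ to 3′ on the coding strand in the RefSeq promoter table of GRCm38.p6, with letters that match GAAA, any 2 bases and GAAA again, on either strand, in capitals. The Ifit1 window is chr19:34640765-34640833, Ifit3 is chr19:34583353-34583436, Isg15 is chr4:156200855-156200916 on the minus strand and Rsad2 is chr12:26456543-26456592 on the minus strand.
Ifit1: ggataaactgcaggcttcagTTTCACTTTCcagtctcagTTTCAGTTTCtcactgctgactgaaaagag
Ifit3: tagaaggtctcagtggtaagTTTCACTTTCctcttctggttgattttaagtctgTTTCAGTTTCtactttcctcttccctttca
Isg15: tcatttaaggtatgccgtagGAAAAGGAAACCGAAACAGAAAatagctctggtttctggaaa
Rsad2: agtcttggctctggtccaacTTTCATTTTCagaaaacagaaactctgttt
These windows lie within 250 bases upstream of the start used in the promoter table, which for Ifit3 lies inside the annotated span of the gene. Ifit1 and Ifit3 held 2 matches each, Isg15 3 overlapping matches and Rsad2 1. Such a match was in 354 of 10460 tested genes with a promoter in the table (3.38%), in 34 of 254 genes called lower (13.4%), in 3 of 84 called higher (3.57%) and in 6 of the 10 called interferon-stimulated genes that the table holds. A match is a description of the letters and not of a bound site.

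Among the effectors, Ifit3, whose product belongs to a family that binds viral RNA and its translation factors, stood at 5.71 and 8.23 CPM in tCD115- against 52.6 and 45.5 in nCD115-, a log2 fold change of −2.81 (SE 0.20, edgeR adjusted p = 0.00241). Its family member Ifit1 stood at 4.21 and 6.07 CPM against 24.6 and 19.8 (log2 fold change −2.11, SE 0.20, edgeR adjusted p = 0.00419). Rsad2, which encodes the antiviral enzyme viperin, stood at 6.43 and 8.58 CPM against 39.3 and 30.5 (log2 fold change −2.22, SE 0.17, edgeR adjusted p = 0.00314). In all 3 genes both tCD115- libraries lay below 10 CPM and both nCD115- libraries above 19. Siglec1, a sialic acid-binding adhesion receptor of macrophages that interferon also induces, fell from 34.6 and 31.7 CPM to 2.94 and 5.81 (log2 fold change −2.92, SE 0.27, edgeR adjusted p = 0.00419). Ifit3b and Ifit1bl1 moved alike, with log2 fold changes of −2.67 and −2.17, but near copies in this cluster on chromosome 19 overlap in the annotation and their reads are uncertain. Further called members, chosen after their values were seen, were Rtp4 (−1.61), Oasl1 (−1.53), Mx2 (−1.47), Irf7 (−1.46), Usp18 (−1.43), Oasl2 (−1.41), Mx1 (−1.28), Isg15 (−1.26) and Oas3 (−1.03). Irf7, the transcription factor that amplifies interferon production, stood at 46.5 and 85.995 CPM against 202 and 163. Cxcl10, a chemokine that draws activated T cells, stood at 11.8 and 10.2 CPM against 24.9 and 24.9 (log2 fold change −1.18, SE 0.11, edgeR adjusted p = 0.00419), and its gene lies within the annotated span of Art3. Ifit2 (log2 fold change −0.68) and Bst2 (−0.90) had an adjusted p under 0.05 but stayed under 2-fold. The count of members called lower was 5 without nCD115- replicate 1, 7 without nCD115- replicate 2, 12 without tCD115- replicate 1 and 23 without tCD115- replicate 2, and the median was −1.45 to −0.64 over these and the other fits that left out 1 library.

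The list of 19 tested Toll-like receptors with their co-receptors and signalling partners had 4 called lower and none higher, against 2.43% of all genes called lower, and all 4 were Tlr genes. They included Tlr7, which senses single-stranded RNA, at 25.6 and 43.1 CPM against 77.2 and 68.8 (log2 fold change −1.09, edgeR adjusted p = 0.0330), and Tlr9, which senses bacterial DNA, at 15.3 and 32.6 against 57.5 and 59.4 (log2 fold change −1.29, edgeR adjusted p = 0.0402). Tlr3 (−1.30) and Tlr11 (−2.20), both under 3 CPM, were the other called members, and 15 of the 19 values were negative with a median of −0.58. Each of Tlr3, Tlr7 and Tlr9 kept its call in 1 of 8 fits without a library, and the list had 0 called lower without nCD115- replicate 1, 2 without nCD115- replicate 2, 1 without tCD115- replicate 1 and 10 without tCD115- replicate 2. The PYHIN cluster on chromosome 1, whose proteins bind DNA or lack a DNA-binding domain, was not in a list and was chosen after its values were seen. Pydc4 (−2.24), Pydc3 (−1.91), Ifi205 (−1.56), Ifi203 (−1.45), Ifi204 (−1.17) and Mndal (−1.11) were all called lower. Ifi203 stood at 56.1 and 99.8 CPM against 237 and 189.5. These genes are near copies, so reads could have been split between them. Of the guanylate-binding and immunity-related GTPases, which attack vacuoles of intracellular microbes, 3 of 18 were called lower, against 2.43% of all genes. These were Gbp9 (−1.52), Tgtp2 (−1.34) and Tgtp1 (−1.07, a near copy of Tgtp2). The median of the 18 was −0.75, and 1 was called without nCD115- replicate 1 and 2 without nCD115- replicate 2.

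Of 21 tested genes of antigen presentation by MHC class II and of dendritic cells, 11 were called lower and none higher, against 2.43% of all genes called lower, and all 21 were negative with a median of −1.18. Cd74, the invariant chain that escorts MHC class II molecules, stood at 57.7 and 50.1 CPM in tCD115- against 189 and 139.5 in nCD115- (log2 fold change −1.61, SE 0.17, edgeR adjusted p = 0.00572). The lowest nCD115- library was more than 2-fold above the highest tCD115- library. The class II chains H2-Aa (−1.40), H2-Ab1 (−1.18) and H2-Eb1 (−1.16) and their transactivator Ciita (−1.25) were called too, and were chosen after their values were seen. The dendritic cell receptor Cd209a (DC-SIGN) fell from 6.31 and 5.58 CPM to 0.510 and 1.01 (log2 fold change −2.96, SE 0.27, edgeR adjusted p = 0.00419). Batf3, a transcription factor of cross-presenting dendritic cells, stood at 0.368 and 0.824 CPM against 3.51 and 2.60 (log2 fold change −2.35). Flt3, the receptor that sustains dendritic cell progenitors, stood at 2.30 and 2.95 CPM against 8.64 in each nCD115- library (log2 fold change −1.72, edgeR adjusted p = 0.0214). Ccr7 (−3.28), Zbtb46 (−2.55) and Clec9a (−1.27) were under 2 CPM in every library, and these low counts kept the call in 2, 0 and 1 of 8 fits without a library. Without nCD115- replicate 1 the list had 2 members called, without nCD115- replicate 2 it had 5 and without tCD115- replicate 1 it had 6, whereas its median stayed between −1.25 and −1.05. Among 18 genes of the MHC class I pathway none was called in either direction. H2-K1 stood at 550.03 and 623 CPM against 812 and 800 (log2 fold change −0.46, edgeR adjusted p = 0.0260), and B2m, the light chain of class I, had a log2 fold change of −0.34.

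C-type lectin receptors, which recognise sugars on microbes and dying cells, were called lower in 8 of 21 cases, against 2.43% of all genes. Clec7a (Dectin-1, a receptor for fungal glucan) stood at 110.5 and 145 CPM against 322 and 273 (log2 fold change −1.22, SE 0.16, edgeR adjusted p = 0.00937). The receptor genes Clec4a1 (−1.24) and Clec4a3 (−1.23), neighbours on chromosome 6, had nearly the same levels in each library, 50.3 and 48.7 CPM in tCD115- replicate 1 and 168 and 164 in nCD115- replicate 1. As near copies they may have shared reads. Mrc1, the mannose receptor CD206, stood at 2.43 and 2.47 CPM against 7.03 and 5.34 (log2 fold change −1.33, SE 0.16, edgeR adjusted p = 0.00752) and kept its call in every fit that left out 1 library. Clec2i (−1.17) and Clec4b1 (−1.22) completed the called members beside Cd209a and Clec9a. Clec7a and Clec2i were chosen after their values were seen. Without nCD115- replicate 1, 3 of the 21 were called, without nCD115- replicate 2, 5, and without tCD115- replicate 1, 4.

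Genes of monocytes and of their patrolling descendants fell where they were called. Cx3cr1, the fractalkine receptor that marks patrolling monocytes, stood at 41.6 and 68.4 CPM in tCD115- against 258 and 245 in nCD115- (log2 fold change −2.19, SE 0.22, edgeR adjusted p = 0.00468). Ace, the angiotensin-converting enzyme found on patrolling monocytes, stood at 7.38 and 19.3 CPM against 62.8 and 50.025 (log2 fold change −2.08, SE 0.39, edgeR adjusted p = 0.0257), with a 2.6-fold gap between the tCD115- libraries. Adgre4 (EMR4, an adhesion receptor) stood at 10.8 and 15.0 CPM against 52.4 and 44.6 (log2 fold change −1.91, SE 0.21, edgeR adjusted p = 0.00572). Values were negative for 15 of 16 nonclassical monocyte genes. With the scavenger receptor gene Cd36 (−1.99) and the nuclear receptor gene Pparg (−1.44), both under 4 CPM, 4 of the 16 were called lower, against 2.43% of all genes. The count was 0 without nCD115- replicate 1 and 1 without nCD115- replicate 2. Nr4a1, the nuclear receptor on which patrolling monocytes depend, had 22.4 and 41.4 CPM against 47.4 and 63.1 (log2 fold change −0.79, edgeR adjusted p = 0.139) and was not called. Of 25 monocyte genes 24 were negative, with a median of −0.62, and 3 were called lower, against 2.43% of all genes. These were Cx3cr1, Csf1r and the chemokine gene Ccl6, the last at 167 and 228 CPM against 556 and 464 (log2 fold change −1.37, SE 0.17, edgeR adjusted p = 0.00937). The lysozyme gene Lyz2 stood at 12388 and 14232 CPM against 20941 and 19764 (log2 fold change −0.61, edgeR adjusted p = 0.0225), under the fold threshold. Ccr2, the receptor by which monocytes leave BM (−0.65, edgeR adjusted p = 0.0522), and the monocyte transcription factor genes Irf8 (−0.51, edgeR adjusted p = 0.117) and Klf4 (−0.62, edgeR adjusted p = 0.100) were not called. For all 3, replicate 1 of tCD115- was the lowest library and replicate 2 was closer to nCD115-. Without tCD115- replicate 1, 2 of the 25 monocyte genes were called lower with a median of −0.39, without tCD115- replicate 2, 10 with a median of −0.93, and without nCD115- replicate 1, 1.

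Of 21 macrophage and iron handling genes, 6 were called lower and none higher, against 2.43% of all genes called lower. Hpgd, the enzyme that inactivates prostaglandins, fell from 42.0 and 35.3 CPM to 3.22 and 4.36 (log2 fold change −3.35, SE 0.27, edgeR adjusted p = 0.00314), the steepest fall, besides Hspa1a, of any called gene with a mean of at least 10 CPM in the higher group. Trf, which encodes transferrin, stood at 62.5 and 67.6 CPM against 165 and 148 (log2 fold change −1.27, SE 0.13, edgeR adjusted p = 0.00468). Axl, a receptor for dying cells, had a log2 fold change of −1.04, and Spic, a transcription factor of iron-recycling macrophages, had −1.94 at or under 1.05 CPM. Fcgrt, the neonatal Fc receptor, was the 1 called member among 8 Fc receptors, against 2.43% of all genes called lower. It stood at 10.9 and 14.7 CPM against 37.1 and 28.4 (log2 fold change −1.35). Slamf8, a regulator of the macrophage oxidative burst, stood at 3.89 and 4.43 CPM against 19.05 and 18.7 (log2 fold change −2.18, SE 0.14, edgeR adjusted p = 0.00241). Other large falls were in the integrin gene Itga8 (−2.50), Skint3 (−2.38), the lipid receptor gene Gpr18 (−2.10) and the junction protein gene Cgnl1 (−1.99). These were all called in every fit that left out 1 library. Without nCD115- replicate 1, 3 of the 21 macrophage genes were called.

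Apoe, the apolipoprotein by which macrophages export cholesterol, stood at 80.9 and 91.4 CPM in tCD115- against 344 and 333 in nCD115- (log2 fold change −1.97, SE 0.24, edgeR adjusted p = 0.00811). Lpl, lipoprotein lipase, stood at 42.7 and 55.1 CPM against 206 and 146 (log2 fold change −1.85, SE 0.20, edgeR adjusted p = 0.00584). Pltp, which transfers phospholipids between lipoproteins and overlaps Ctsa in the annotation, stood at 1.95 and 3.45 CPM against 14.8 and 11.3 (log2 fold change −2.27). The cholesterol exporter gene Abca1 (−1.68) and its family members Abca6 (−2.16) and Abca9 (−1.67), the sterol hydroxylase gene Cyp27a1 (−1.67), the desaturase gene Scd1 (−1.96) and Lpin1 (−2.25), which encodes a phosphatidate phosphatase, were also called lower. Abca1 and Scd1 were the 2 called of 30 sterol and fatty acid synthesis genes, against 2.43% of all genes called lower. Of the 30, 16 were positive and 14 negative with a median of 0.01, and none was called lower without either nCD115- library. In the list of 26 lipase and lipid turnover genes, 4 were lower (Apoe, Lpl, Pltp and Cd36) and 3 higher, against 2.43% and 0.855% of all genes. Of the higher ones, Lipg, which encodes endothelial lipase, rose from 3.26 and 5.98 CPM to 175 and 108 (log2 fold change 4.94, SE 0.43, edgeR adjusted p = 0.00405), the largest rise of any called gene with a mean of at least 10 CPM in the higher group. Its gene lies at 74939322 to 74961263 of chromosome 18. Both tCD115- libraries were above 100 CPM and both nCD115- libraries below 6. Dgat2, which makes the last step of triglyceride synthesis, stood at 166 and 114 CPM against 51.9 and 77.3 (log2 fold change 1.12, SE 0.22, edgeR adjusted p = 0.0284), and Agpat9, which makes the first, at 4.28 and 3.93 against 1.65 and 2.04 (1.16). The median of the 26 was 0.02, and without nCD115- replicate 1 the list had 1 called lower and 1 called higher. Abca9, Cyp27a1 and Dgat2 were chosen after their values were seen.

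The inducible heat shock genes Hspa1a and Hspa1b fell steeply, with a wide spread between replicates. Hspa1a stood at 2.69 and 6.37 CPM in tCD115- against 72.8 and 29.9 in nCD115- (log2 fold change −3.50, SE 0.62, edgeR adjusted p = 0.0260), and Hspa1b at 3.92 and 8.18 against 83.9 and 36.1 (log2 fold change −3.31, SE 0.59, edgeR adjusted p = 0.0260). The nCD115- libraries differed by more than 2-fold from each other, with replicate 1 the higher in both genes. The genes encode nearly the same protein and their reads could have been split. Each lost its call in 3 of 8 fits that left out 1 library, those without either tCD115- library and without nCD115- replicate 1. Hspa1a and Hspa1b were the 2 called of 17 chaperone genes, against 2.43% of all genes called lower. The constitutive Hspa8 stood at 1499.8 and 1609 CPM against 1468 and 1534 (log2 fold change 0.05). Dnajb1, which the same stress induces, stood at 74.6 and 71.5 against 84.1 and 75.8 (−0.13). Hsp90aa1 had a log2 fold change of 0.54. The stress-responsive immediate early genes had 2 of 21 called lower, against 2.43% of all genes, and 18 of 21 were negative with a median of −0.61. The called genes were Fos (149.9 and 221 CPM against 413 and 406, log2 fold change −1.14, edgeR adjusted p = 0.0446) and Atf3 (−1.24). The count called lower was 0 without tCD115- replicate 1 or nCD115- replicate 1, 1 without nCD115- replicate 2 and 4 without tCD115- replicate 2.

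Of 65 tested genes in the list of myeloid transcription factors, 6 were called lower and none higher, against 2.43% and 0.855% of all genes: Batf3 (−2.35), Irf4 (−1.86), Pparg (−1.44), Atf3 (−1.24), Maf (−1.21) and Bach2 (−1.19). Irf4, a factor of dendritic cells and alternatively activated macrophages, stood at 4.59 and 7.65 CPM against 23.03 and 21.3 (SE 0.23, edgeR adjusted p = 0.00852). The median of the 65 was −0.29, and the count called lower was 0 without nCD115- replicate 1, 3 without nCD115- replicate 2, 4 without tCD115- replicate 1 and 14 without tCD115- replicate 2. Granulocyte factors were not called: Cebpe, which is required for late granulocyte maturation, stood at 418 and 289 CPM against 197 and 280 (log2 fold change 0.57, edgeR adjusted p = 0.100), and Gfi1 at 113 and 72.7 against 48.5 and 79.8 (0.53). For both, only replicate 1 of tCD115- stood clearly above nCD115-. Hoxa9, a transcription factor of progenitors and leukemic cells that stood in the stem and progenitor list, was called higher at 0.985 and 0.723 CPM against 0.146 and 0.228 (log2 fold change 2.19, edgeR adjusted p = 0.0452). It was the 1 called higher of 21 stem and progenitor genes, of which 1 was called lower, 8 were positive and 13 negative. Of the 8 fits that left out a library it kept its call only without tCD115- replicate 2.

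**Figure D3:**
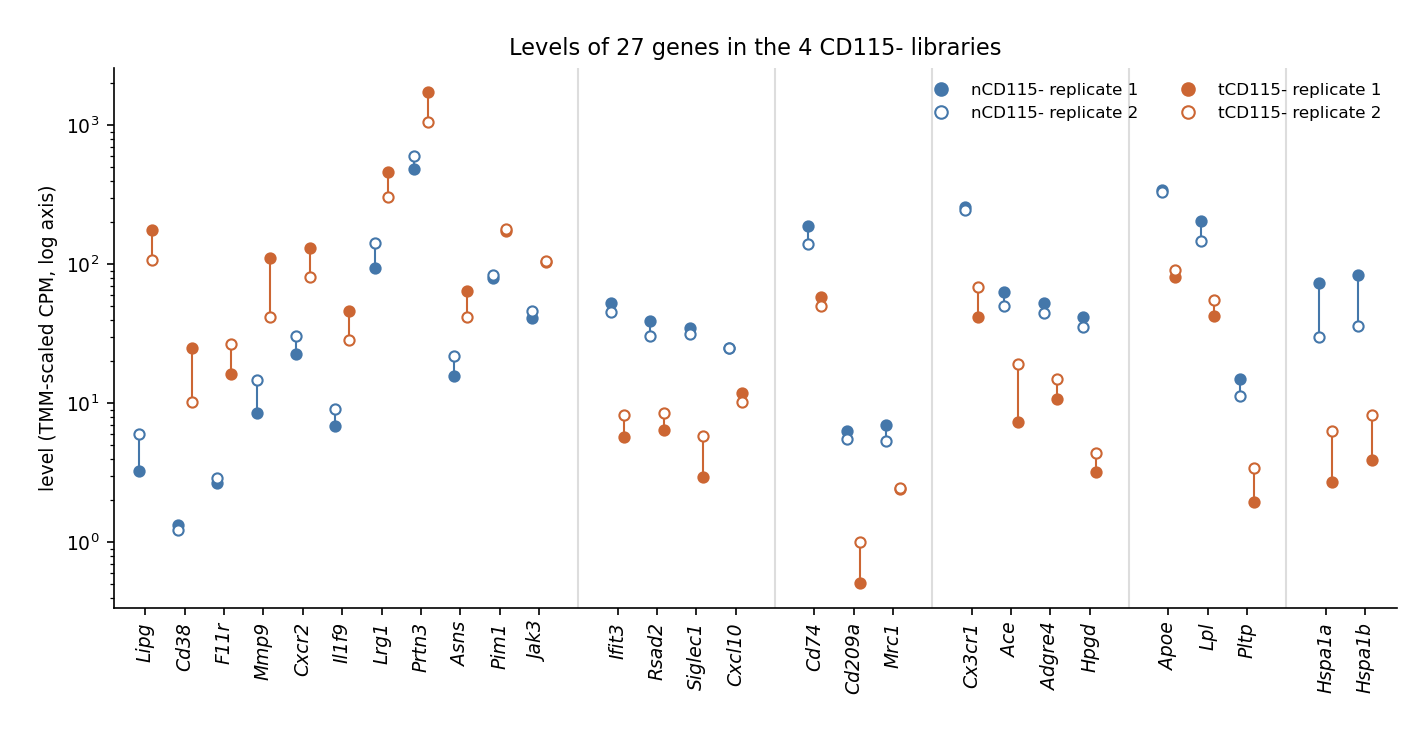
Level (TMM-scaled CPM, log axis) of 27 genes in the 4 CD115- libraries, with nCD115- in blue and tCD115- in orange, replicate 1 filled and replicate 2 open, and a line joining replicates. The groups did not overlap for any of the 27, which are all called genes. The same held for all 434 called genes and for 7701 of all 13211. The nCD115- replicates were farthest apart for Hspa1a and Hspa1b.

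Genes that rose had varied roles. Cd38, an ectoenzyme that consumes NAD and that is used as a marker of suppressive myeloid cells, stood at 25.0 and 10.2 CPM in tCD115- against 1.33 and 1.24 in nCD115- (log2 fold change 3.78, SE 0.59, edgeR adjusted p = 0.0166), with a 2.4-fold gap between the tCD115- libraries. F11r, the junctional adhesion molecule JAM-A, stood at 16.3 and 26.5 CPM against 2.66 and 2.89 (log2 fold change 2.95, SE 0.36, edgeR adjusted p = 0.00852), and here replicate 2 was the higher of the tCD115- libraries. Tgm1, a transglutaminase, stood at 16.7 and 17.04 CPM against 6.13 and 5.45 (log2 fold change 1.54, SE 0.13, edgeR adjusted p = 0.00351). Cmah, which makes the sialic acid Neu5Gc, stood at 45.4 and 34.3 CPM against 7.42 and 9.55 (log2 fold change 2.23, SE 0.21, edgeR adjusted p = 0.00423). The sheddase gene Adam8 stood at 33.5 and 25.8 CPM against 9.26 and 10.4 (1.60), the maltase gene Mgam at 45.5 and 37.2 against 11.04 and 16.1 (1.61), and Ankrd49, which encodes an ankyrin repeat protein, at 23.1 and 19.9 against 5.11 and 6.48 (1.89). Dmkn (2.21), AA467197 (2.13) and Ifitm1 (1.74) also rose, the last in contrast to the interferon-stimulated genes above. Clu, the secreted chaperone clusterin, chosen after its values were seen, went from 0.112 and 0.204 CPM to 11.8 and 4.26 (log2 fold change 5.66, SE 0.58, edgeR adjusted p = 0.00468). The acute-phase gene Saa3 went from 1.11 and 0.840 CPM to 9.73 and 5.31 (2.94), and the granzyme gene Gzmb from 0.527 and 0.336 to 1.51 and 2.76 (2.30).

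Neutrophil genes mostly had positive values, and a minority was called. Of 28 gelatinase granule and mature neutrophil genes, 6 were called higher against 0.855% of all genes, 23 were positive and the median was 0.81. Mmp9, gelatinase B, stood at 111 and 42.0 CPM in tCD115- against 8.54 and 14.7 in nCD115- (log2 fold change 2.72, SE 0.64, edgeR adjusted p = 0.0467). Cxcr2, the receptor that draws neutrophils out of BM, stood at 132 and 80.3 CPM against 22.7 and 30.4 (log2 fold change 2.0, SE 0.28, edgeR adjusted p = 0.0116). The leucine-rich glycoprotein gene Lrg1 stood at 460.1 and 306 CPM against 94.5 and 143 (log2 fold change 1.69, SE 0.32, edgeR adjusted p = 0.0257). Mmp25, a membrane-bound protease of neutrophils, stood at 122 and 90.6 CPM against 35.2 and 56.0 (1.22), and Asprv1 at 19.1 and 4.95 against 1.12 and 1.24 (3.35). In the specific granule list 2 of 20 were called, Ceacam10 (19.4 and 9.81 CPM against 3.18 and 3.36, log2 fold change 2.16) and Anxa1 (4011 and 2351 against 1424 and 1657, 1.05). The azurophil proteases Ctsg (311 and 162 CPM against 80.3 and 90.9, log2 fold change 1.47, edgeR adjusted p = 0.0298) and Prtn3 (1731 and 1046 against 484 and 597, 1.36, edgeR adjusted p = 0.0246) were the 2 called of 15. The abundant granule genes were not called, and their tCD115- replicate 2 came close to nCD115-. S100a9 stood at 35325 and 21023 CPM against 14945 and 19378 (log2 fold change 0.72, edgeR adjusted p = 0.198), S100a8 at 22647 and 12616 against 9070.3 and 11540.0 (0.77, edgeR adjusted p = 0.140), and Ngp at 24138 and 15682 against 11591 and 15159 (0.57). Camp had a log2 fold change of 0.30 with replicate 2 of tCD115- below nCD115- replicate 2, and Olfm4 of 0.32. Ltf (0.82, edgeR adjusted p = 0.0770), Mpo (1.03, edgeR adjusted p = 0.0647), Elane (0.89, edgeR adjusted p = 0.0699) and Lcn2 (1.03, edgeR adjusted p = 0.0537) missed the threshold. Olfm4, Mpo, Elane and Lcn2 were chosen after their values were seen. The counts leaned on several libraries. Without tCD115- replicate 1, 1 of 28 gelatinase, 1 of 20 specific and 0 of 15 azurophil genes were called higher, with medians of 0.36, 0.29 and 0.44. Without tCD115- replicate 2 these counts were 12, 3 and 10, without nCD115- replicate 1 they were 0, 0 and 0, and without nCD115- replicate 2 they were 2, 0 and 0.

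Of 27 tested genes in the list of STAT3 and cytokine feedback genes, 7 were called higher and none lower, against 0.855% and 2.43% of all genes, with a median of 0.51 and 10 negative values. Pim1, a survival kinase, stood at 174 and 178 CPM against 79.3 and 83.5 (log2 fold change 1.11, SE 0.07, edgeR adjusted p = 0.00241), and Jak3, the kinase of the common gamma chain, at 103 and 105 against 41.3 and 46.4 (log2 fold change 1.25, SE 0.09, edgeR adjusted p = 0.00241). The replicates of both genes differed by about 1.1-fold or less in each group, and both kept the call in every fit that left out 1 library. Socs3, the feedback inhibitor of IL-6 and G-CSF signals, stood at 16.3 and 31.3 CPM against 10.4 and 9.13 (log2 fold change 1.29, edgeR adjusted p = 0.0330), highest in replicate 2. Gadd45g (1.28) and Cish (1.07, 3.95 and 3.92 CPM against 1.89 and 1.85) were called as well. The remaining called members were Lrg1 and Il1r2, which are counted in other lists too and are described with those. The receptor gene Il21r, which was not in this list, was also called (1.06). Il4ra, the IL-4 receptor chain described on MDSCs, had 159 and 167 CPM against 105 and 103 (log2 fold change 0.65, edgeR adjusted p = 0.00667), under the fold threshold. Cish, Il21r and Il4ra were chosen after their values were seen. In the list of 21 tested interleukin-1 family and inflammasome genes, 2 were called higher, against 0.855% of all genes. Of the 21, 7 were positive and 14 negative, with a median of −0.1. The called Il1f9, which encodes IL-36 gamma, stood at 46.2 and 28.7 CPM against 6.88 and 9.06 (log2 fold change 2.23, SE 0.26, edgeR adjusted p = 0.00778). The decoy receptor gene Il1r2 stood at 74.1 and 40.1 against 16.1 and 22.8 (1.55, edgeR adjusted p = 0.0393). The other 19 members of that list were not called, and the count was 0 without nCD115- replicate 1 and 1 without tCD115- replicate 1 or nCD115- replicate 2. Without nCD115- replicate 1 or without nCD115- replicate 2, 2 of the 27 feedback genes were called, and without tCD115- replicate 1, 4.

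Synthesis of asparagine, serine and glutathione each had a gene that rose. Asns, asparagine synthetase, stood at 63.9 and 41.9 CPM against 15.7 and 21.7 (log2 fold change 1.5, SE 0.25, edgeR adjusted p = 0.0188). Its proximal promoter is shown because the amino acid response acts on it through a C/EBP-ATF response element, the letters TGATGNAA or their reverse complement TTNCATCA, which are in capitals in the window chr6:7693210-7693252 on the minus strand, GRCm38.p6.
Asns: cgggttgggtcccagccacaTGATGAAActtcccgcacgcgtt
Such a match lay within 250 bases upstream of 262 of 10460 tested genes in the table (2.50%), of 4 of 84 genes called higher (4.76%) and of 12 of 254 called lower (4.72%). Phgdh, the first enzyme of serine synthesis, stood at 44.6 and 29.8 CPM against 18.5 and 16.8 (log2 fold change 1.07, SE 0.21, edgeR adjusted p = 0.0260). With Asns and Phgdh, 2 of 20 amino acid and serine metabolism genes were called higher, against 0.855% of all genes. This count was 0 without either nCD115- library, 1 without tCD115- replicate 1 and 4 without tCD115- replicate 2. The mitochondrial Shmt2 had a log2 fold change of 0.67. Gclm, the regulatory subunit of the rate-limiting enzyme of glutathione synthesis, stood at 77.0 and 57.7 CPM against 27.8 and 31.1 (log2 fold change 1.19, SE 0.14, edgeR adjusted p = 0.00686), and was the 1 called of 27 NADPH oxidase and antioxidant genes, of which none was called without tCD115- replicate 1 or without nCD115- replicate 1. Ada, adenosine deaminase, stood at 92.9 and 67.3 CPM against 27.3 and 38.6 (1.28), the glucose transporter gene Slc2a3 at 223 and 146 against 72.6 and 102 (1.08, edgeR adjusted p = 0.0426) and the scramblase gene Plscr1 at 160.2 and 106 against 54.8 and 66.0 (1.14). Slc2a3 was the 1 called of 29 glycolysis and hypoxia genes, a call that it kept only without tCD115- replicate 2 among the 8 fits that left out a library, and Ldha, lactate dehydrogenase, had a log2 fold change of 0.65 (edgeR adjusted p = 0.0227). The single calls of Gclm among 27 genes and of Slc2a3 among 29 stand beside 0.855% of all genes called higher. Ada, Plscr1, Shmt2 and Ldha were chosen after their values were seen.

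Of 21 tested genes linked with T cell suppression by MDSCs, Cd38 was the 1 called, against 0.855% of all genes called higher. The median of the 21 was 0.11. None was called higher without tCD115- replicate 1 or without either nCD115- library. Nos2, inducible nitric oxide synthase, had 16 reads in each tCD115- library and none in nCD115-, and did not pass the test (edgeR adjusted p = 0.0593). Arg1 did not pass the filter, with no read in either tCD115- library. Arg2 stood at 0.985 and 1.11 CPM against 0.515 and 0.672 (log2 fold change 0.82, edgeR adjusted p = 0.215), Cd274 (PD-L1) at 4.995 and 4.40 against 5.86 and 5.77 (−0.31) and Vegfa at 64.6 and 46.9 against 33.1 and 44.1 (0.53, edgeR adjusted p = 0.107). Of 20 angiogenic and matrix factors 2 were called lower and 1, Mmp9, higher, against 2.43% and 0.855% of all genes. Of the 20, 9 were positive and 11 negative. The count called lower was 0 without nCD115- replicate 1 and 1 without nCD115- replicate 2. Of the lower ones, Flt1, a VEGF receptor that monocytes carry, stood at 4.43 and 3.11 CPM against 12.3 and 14.4 (log2 fold change −1.82, edgeR adjusted p = 0.0162), and Pdgfb (−2.15) fell at under 3 CPM. Arg2, Cd274 and Vegfa were chosen after their values were seen.

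Growth and housekeeping lists had no member called at 2-fold. Genes of DNA replication (30) and mitosis (30) were all positive, each with a median of 0.39, and 14 and 8 of them had an adjusted p under 0.05. Rrm2, a subunit of ribonucleotide reductase, stood at 578 and 453 CPM against 316 and 365 (log2 fold change 0.60, edgeR adjusted p = 0.0341), and Ccne1 had 0.62 and Mcm5 0.39. Mki67 stood at 1266 and 1664 CPM against 972 and 1182 (0.44, edgeR adjusted p = 0.0841). Cytosolic ribosomal proteins (59, median 0.06), oxidative phosphorylation (42, 0.16), lysosomal genes (30, −0.17) and the unfolded protein response (22, 0.19) had medians close to that of all genes. Actb had a log2 fold change of 0.09 and Eef1a1 of −0.09.

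**Figure D4:**
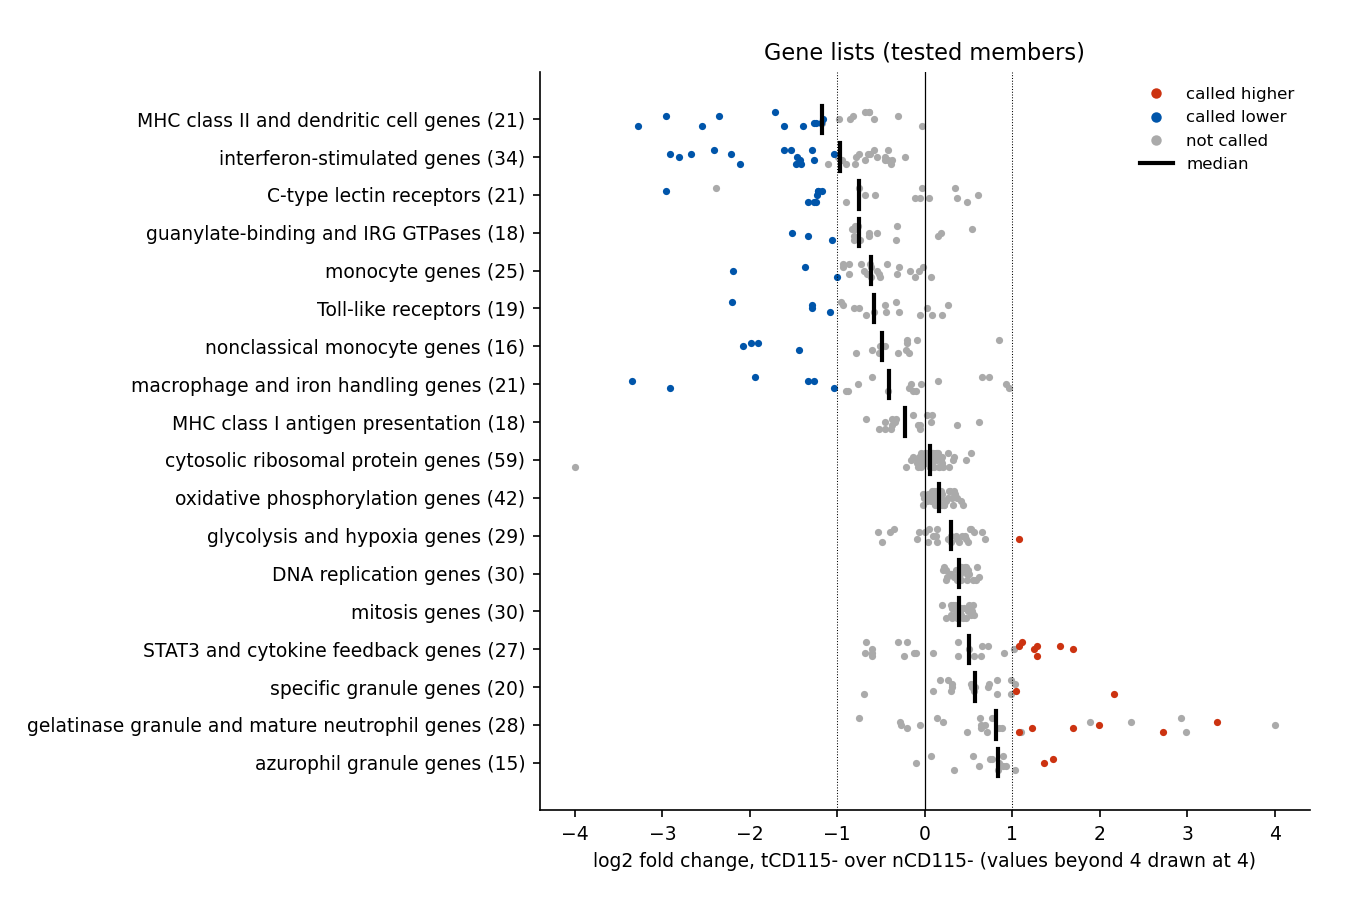
Each point is a tested member of 1 of 18 gene lists, placed by its log2 fold change of tCD115- over nCD115-, with called genes in red (higher) or blue (lower) and a bar at the list's median. Medians ran from −1.18 for MHC class II and dendritic cell genes to 0.84 for azurophil granule genes, and the DNA replication and mitosis genes lay on the positive side within 2-fold.

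The same contrast in CD115+ cells used other libraries but the same fit, and showed which calls were shared. Shared calls are no independent replication, because both fractions may have come from the same mice. In CD115+ cells 124 genes were called higher (0.939%) and 219 lower (1.66%). Of the genes called in CD115- cells, 51 were also called higher (45.1% of 113, and 41.1% of 124) and 136 also called lower (42.4% of 321, and 62.1% of 219). The sign was the same for 101 of the 113 and 316 of the 321. Interferon-stimulated genes had 14 members called lower in CD115+ cells against 15 in CD115-, with medians of −0.95 and −0.97, and MHC class II and dendritic cell genes had 9 against 11. Gelatinase granule and mature neutrophil genes had 5 called higher in CD115+ cells against 6 in CD115-, with medians of 0.92 and 0.81. Nonclassical monocyte genes had 4 called lower in each subset, with medians of −0.52 in CD115+ and −0.49 in CD115- cells. Guanylate-binding and immunity-related GTPases had 3 called lower in each subset, and myeloid transcription factors 6. Some other lists were less alike. Monocyte genes had 1 called lower in CD115+ cells against 3 in CD115-, with medians of −0.09 and −0.62. STAT3 and cytokine feedback genes had 4 called higher against 7, with medians of 0.07 and 0.51. Markers of T and NK cells had 7 called lower against 0, with medians of −1.71 and 0.64. Ifit3 had a log2 fold change of −2.63 in CD115+ cells, Cd209a −2.92, Siglec1 −2.57, Hspa1a −2.73, Cd38 4.16 and F11r 2.87. Lipg had 4.39 in CD115+ cells without being called there. The difference between the 2 effects was tested as an interaction in edgeR, and 0 genes passed an adjusted p under 0.05 with a 2-fold difference, while 751 had an unadjusted p under 0.05 and DESeq2 counted 68. Without the filter on low counts 4 genes passed this edgeR test, and leaving out 1 library gave 0 to 173, the most without tCD115- replicate 2.

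Csf1, which encodes the ligand of CD115, was the 1 gene called in opposite directions. It stood at 15.0 and 9.83 CPM in tCD115- against 4.98 and 5.46 in nCD115- (log2 fold change 1.25, SE 0.21, edgeR adjusted p = 0.0179), and at a mean of 1.38 in tCD115+ against 3.998 in nCD115+ (−1.53). The difference of the effects was 2.78 (unadjusted p = 2.1e-05, edgeR adjusted p = 0.0805). C5ar1, the receptor of complement fragment C5a, fell from 42.8 and 58.3 CPM to 15.2 and 13.9 in CD115- cells (log2 fold change −1.80, SE 0.24, edgeR adjusted p = 0.0107) and had 0.95 in CD115+ cells. Cmah rose by 2.23 in CD115- cells and had −0.99 in CD115+ cells, where its mean level was 1.63 against 3.27 CPM. Lrg1 was called higher in both, by 1.69 and by 4.67. Chtop, an RNA export factor, stood at 67.6 and 66.1 CPM against 154 and 128 (log2 fold change −1.08, edgeR adjusted p = 0.00419) and had 0.25 in CD115+ cells. These genes were chosen after their values in both subsets were seen.

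**Figure D5:**
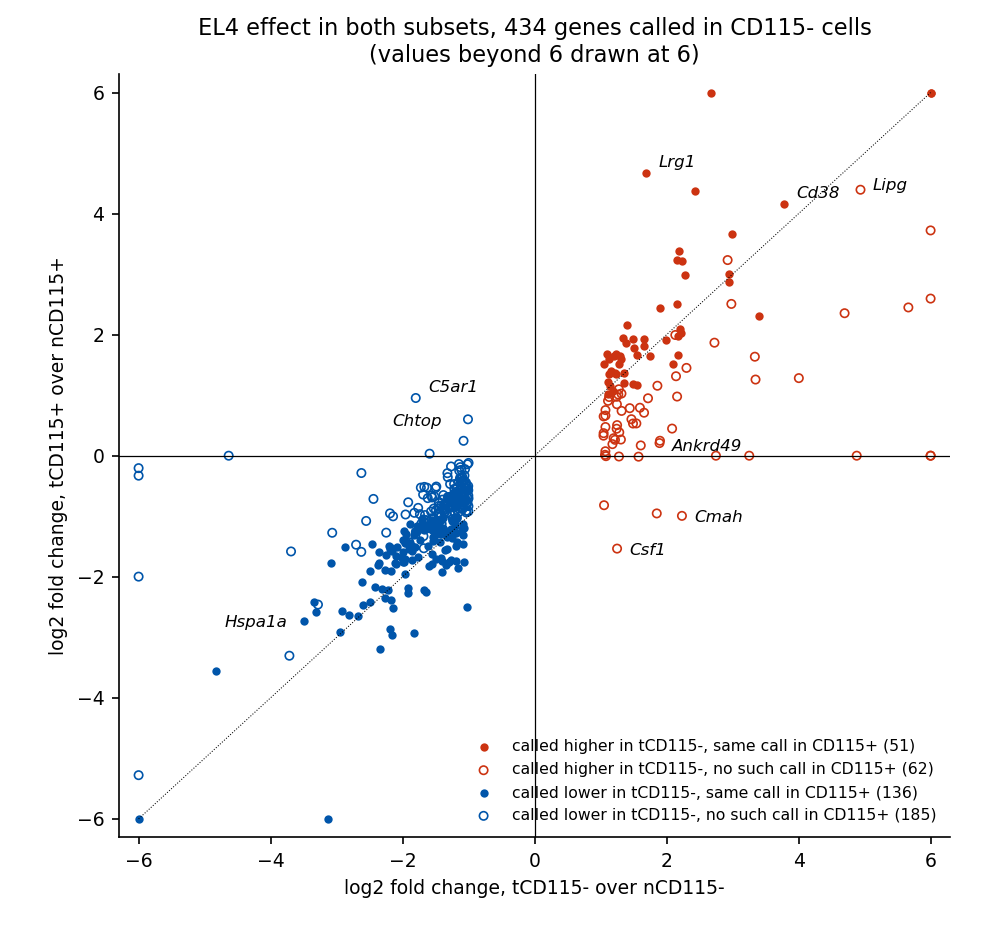
Each point is 1 of 434 genes called in CD115- cells, with its log2 fold change in CD115- cells (x) against that in CD115+ cells (y), filled where the same call was made in CD115+ cells. Most points lie in the lower left and upper right corners, and Csf1, Cmah and C5ar1 lie in the other corners.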

How the data were processed

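Stranded mRNA libraries (TruSeq) were sequenced by Macrogen. For each gene the authors deposited unnormalized whole-number read counts, and FPKM values that entered no test here. Of the tools in the submitters' processing notes, HISAT2 (2.0.5) and StringTie (1.3.3b) carry a version, the build is mm10, and no roles are named. How strand was set in counting is not given in the sources. Not used were 12 further value columns and 24 columns of the authors' own comparisons, such as fold changes and p-values.

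Tests were run in edgeR 4.0.16 (R 4.3.3, with limma 3.58.1), DESeq2 1.42.0 served as an alternative, and figures were drawn with matplotlib 3.10.9 under Python 3.11.15. Genes were filtered by filterByExpr, scaled by TMM and fitted by the quasi-likelihood model with robust estimation to all 8 libraries with 1 mean per group (4 residual degrees of freedom, median prior 3.65). P-values were adjusted by Benjamini-Hochberg over 13211 genes, and the procedure was tested on simulated counts. With 2 libraries against 2, an exact permutation test cannot go below 0.333, so no single value was tested that way. Gene IDs were matched to RefSeq (GRCm38.p6) for 16123 genes, from which coordinates and promoters came. Library totals set the precision: 1 read at the median total of 91432632 was 0.0109 CPM before TMM scaling.

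The lists (53, from textbook knowledge), the genes and the comparison were chosen with earlier results of these data known, and lists are described by counts and medians without a test. Named genes were the 20 of largest change per direction with a mean of at least 10 CPM in the higher group and libraries that did not overlap, at most 6 called members per list (the 2 of highest CPM where fewer than 2 were called), the sorting markers and the 10 genes of highest CPM. Beside these, 61 genes were chosen after their values were seen, and some items are not reported here. Alternatives were DESeq2, 3 other scalings, 2 other filters, the 4 libraries alone, no robust estimation, a replicate block and leaving out each library.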

Additional observations from a re-analysis of the deposited data

Results flagged for a closer look

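The response of 11 genes called in CD115- cells differed from that in CD115+ cells by DESeq2's interaction test, which is what brought them here, and none of them passed edgeR's interaction test on filtered genes after Benjamini-Hochberg adjustment. Each value is the log2 fold change in CD115- cells minus that in CD115+ cells. The difference was 2.78 for Csf1 (edgeR adjusted p = 0.0805, DESeq2 adjusted p = 7.98e-13), 3.23 for Cmah (edgeR adjusted p = 0.0805), 1.68 for Ankrd49 (edgeR adjusted p = 0.0805) and −2.75 for C5ar1 (edgeR adjusted p = 0.0813). It was −1.32 for Chtop (edgeR adjusted p = 0.0805) and −2.98 for Lrg1 (edgeR adjusted p = 0.203), which was called higher in both subsets. The maltase gene Mgam had 1.44 (edgeR adjusted p = 0.431), and Pnpla1, a lipase-family gene, had 2.80 at a mean of 3.10 CPM in tCD115- against 0.859 in nCD115- (edgeR adjusted p = 0.431). The adaptor gene Stap2 had 1.87 (edgeR adjusted p = 0.552), the apelin receptor gene Aplnr 1.49 (edgeR adjusted p = 0.263) and BC003331 −1.61 (edgeR adjusted p = 0.431, its annotated span overlaps Tpr). Under edgeR without the filter on low counts, Csf1, Cmah, Ankrd49 and Chtop passed at an adjusted p of 0.0480.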

How the results depend on the processing

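With DESeq2, 172 genes were higher in tCD115- and 378 lower (109 and 304 of them called by edgeR too), and 68 differed in effect between the subsets. With the 4 CD115- libraries alone, 13 were higher and 23 lower. Without the filter on low counts, 4 genes differed between the subsets. Leaving out 1 library gave 8 to 243 genes higher, 28 to 816 lower and 0 to 173 with a different effect, the lows for higher and lower without nCD115- replicate 1 and all 3 highs without tCD115- replicate 2, so the fit without that library called more than the whole set. The cause was not tested. The other scalings, filters and the fit without robust estimation gave 99 to 123 genes higher and 300 to 330 lower. Deviations of same-numbered libraries from their group means correlated at −0.099 between tCD115- and nCD115- and at −0.0292 to 0.0778 for the other pairs. With 2 libraries per group, each value sets a single replicate difference against another. It therefore cannot decide whether same-numbered libraries came from the same mice. With a replicate block 89 genes were higher, 288 lower and 0 differed between the subsets. Of 180 genes with values in the text, none changed its direction while called. The 4-library fit and the fit without nCD115- replicate 1 each ended 113 of 138 calls, the fit without nCD115- replicate 2 ended 73, the block 13 and DESeq2 3. With 2 libraries per group the test has little power for small changes, and no cell counts, sort purity or mouse identities were analysed here.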

Other observations

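Genes of the B lineage, which the gate should hold few of, were low in both groups. Of 13 tested, 3 were called lower in tCD115-, against 2.43% of all genes. Ms4a1 (CD20) stood at 0.522 and 0.323 CPM in tCD115- against 2.06 and 1.68 in nCD115- (log2 fold change −2.15, edgeR adjusted p = 0.0196), and Ebf1 at 0.368 and 0.312 against 1.18 and 0.947 (−1.64). All 13 values were negative. The T and NK cell list had 1 of 18 called, in the other direction, against 0.855% of all genes called higher. Without nCD115- replicate 1, or without nCD115- replicate 2, none of the 13 B lineage genes was called, and without either tCD115- library 5 were.

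In the list of TNF and NF-kB genes, 3 of 24 tested members were called lower and none higher, against 2.43% and 0.855% of all genes. Cd40, the receptor through which T cells license antigen-presenting cells, stood at 5.27 and 6.33 CPM against 18.5 and 13.6 (log2 fold change −1.47, SE 0.17, edgeR adjusted p = 0.00717). The ligand genes Tnfsf12 (TWEAK, 4.69 and 9.21 CPM against 15.8 and 16.6) and Tnfsf10 (TRAIL, 2.04 and 3.87 against 7.38 and 6.09) had log2 fold changes of −1.22 and −1.19. Without tCD115- replicate 1, or without either nCD115- library, the count of called members was 1, and without tCD115- replicate 2 the count was 4. Padi2, an enzyme that converts arginine to citrulline in proteins, stood at 38.6 and 72.2 CPM against 196 and 192 (−1.81, edgeR adjusted p = 0.0119), and S1pr5, a sphingosine 1-phosphate receptor, at 2.67 and 5.24 against 12.6 and 10.2 (−1.53), both chosen after their values were seen. Of genes at low levels that rose, F7, coagulation factor VII, stood at 3.57 and 2.72 CPM against 1.46 and 1.42 (1.13, edgeR adjusted p = 0.0188), and Ggt5, which acts on leukotrienes, at 7.84 and 6.07 against 2.43 and 3.55 (1.22). Neither was called without tCD115- replicate 1 or without either nCD115- library, Padi2 was not called without nCD115- replicate 1, and S1pr5 was not called without either nCD115- library.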
